A study of Mus musculus with 2 samples.

Results

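The genes examined here are 47 genes of the extracellular matrix and of hepatic stellate cells, the liver's main collagen-producing cells. They were taken by symbol from a list that covers collagens, laminins, proteoglycans, matrix glycoproteins, lysyl oxidases, metalloproteinases and their inhibitors, contractile proteins, stellate receptors and TGF-beta genes. They are 47 of 20660 named genes on the array, read by 60 probes, and 44 of them were well above background on both arrays, as were 13881 named genes in all. Col5a2, Tnc and Lox were well above background on neither array.

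Liver RNA was compared between CREBH-Tg mice and wild-type (WT) mice, with C57B6J given as the strain background of both. The transgene is a human CREBH cDNA coding for the active form of this liver-enriched transcription factor, and its overexpression lies mainly in the liver. All mice ate the HFHS diet for 12 weeks, so neither pool shows a liver without that diet. Liver RNA was pooled by genotype, the number and age of the mice in each pool are not given in the sources used here, and each pool was hybridised to 1 Agilent mouse array. With 1 array per genotype there was no replicate and no test, and every difference below is described by its size.

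Stellate cells lie beside the liver sinusoids, store vitamin A as retinyl esters and, when activated, take on contractile proteins and secrete collagen. Fibrillar collagens give tissue its tensile strength, whereas type IV collagen, laminins, nidogen and perlecan build basement membranes. TGF-beta and platelet-derived growth factors drive stellate cell activation, and tissue inhibitors of metalloproteinases (TIMPs) slow the breakdown of the matrix that results. In whole-liver RNA, fewer cells of a type and less RNA per cell cannot be told apart.

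Signals are given as log2 of the processed intensity relative to the 75th percentile of the same array, which was an intensity of 309 on the CREBH-Tg array and 333 on the WT array. A log2 ratio is the CREBH-Tg signal minus the WT signal of 1 probe, so a positive ratio means higher in CREBH-Tg liver. On the CREBH-Tg array 58.3% of spots were well above background, and on the WT array 55.4%, and no spot was saturated. The only error available was spot noise, from 276 probes spotted at least 5 times. It was taken in 3 equal classes of genes by signal. From the dimmest class to the brightest, the SD of a log2 ratio between single spots was 0.20, 0.085 and 0.048. A gene was counted as beyond spot noise when its ratio lay outside the 95% range of its class, which was 0.40, 0.17 and 0.095 to either side of 0 for a gene read by 1 spot. For a gene read by several spots the range was divided by the square root of their number. Spot noise says nothing of how animals, pools, labellings or hybridisations vary.

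The median of the 44 measured genes lay slightly above that of all genes on the array, and no member reached 2-fold. The proteoglycan Lum was 1.65-fold higher in CREBH-Tg liver, the matricellular protein Thbs2 1.6-fold and the metalloproteinase inhibitor Timp1 1.58-fold. Thbs2 and Timp1 are dim genes. After normexp background correction their log2 ratios were 0.26 and 0.40, under 1.5-fold. Both lay within the limit of spot noise, but that limit was taken before the correction and not anew after it. The stellate activation marker Acta2 was 1.42-fold higher and the type I and type III collagen chains were 1.15-fold to 1.22-fold higher. Both type IV collagen chains and fibronectin were lower, by at most 1.26-fold, the dim gene Thbs1 was 1.43-fold lower, and the laminins, nidogen and perlecan lay within spot noise.

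In counts, 3 of 44 genes were at least 1.5-fold higher (6.82%), where 2.33% of all 13881 genes were, and 0 were at least 1.5-fold lower, against 2.23% of all genes. At 2-fold there were 0 in either direction, with 0.663% of all genes higher and 0.67% lower. At a log2 ratio of 0.32 to either side, 11 were higher and 2 lower, where 8.02% of all genes were higher and 7.18% lower. Beyond spot noise, 17 were higher, 4 were lower and 23 were within it, against 21.4% higher and 13.4% lower among all genes. The ratio was above 0 for 31 of 44 genes (70.5%), where 56.2% of all genes were above 0, and below 0 for 13, where 43.8% of all genes were. The median log2 ratio was 0.12 over the 44 genes and 0.027 over all genes. The share of all genes called at 1.5-fold depended on the scaling, with 3.32% higher and 1.62% lower under median scaling, 1.89% higher and 2.76% lower in the authors' value table, and 1.02% higher and 0.591% lower after normexp background correction.

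The 44 genes fell unevenly over the signal classes, and positive ratios were most common in the dimmest class. In the dimmest class, 14 of 17 genes were above 0 with a median of 0.25. Of all genes of that class 49.8% were above 0, with a median of -0.0026. Here 2 of the 17 were at least 1.5-fold higher, as were 4.37% of all dim genes, and 6 were higher beyond spot noise, as were 10.2%. In the middle class, 13 of 19 were above 0 with a median of 0.082. Of all genes of the class 52.7% were above 0, with a median of 0.011. Here 8 of the 19 were higher beyond spot noise, where 17.3% of the class were. In the brightest class, 4 of 8 were above 0 with a median of 0.015. Both lay below the class as a whole, where 66.1% were above 0 with a median of 0.051. Here 3 of the 8 were higher beyond spot noise, where 36.7% of the class were. The share beyond spot noise in the brightest class was thus close to that of the class as a whole.

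**Figure D1:**
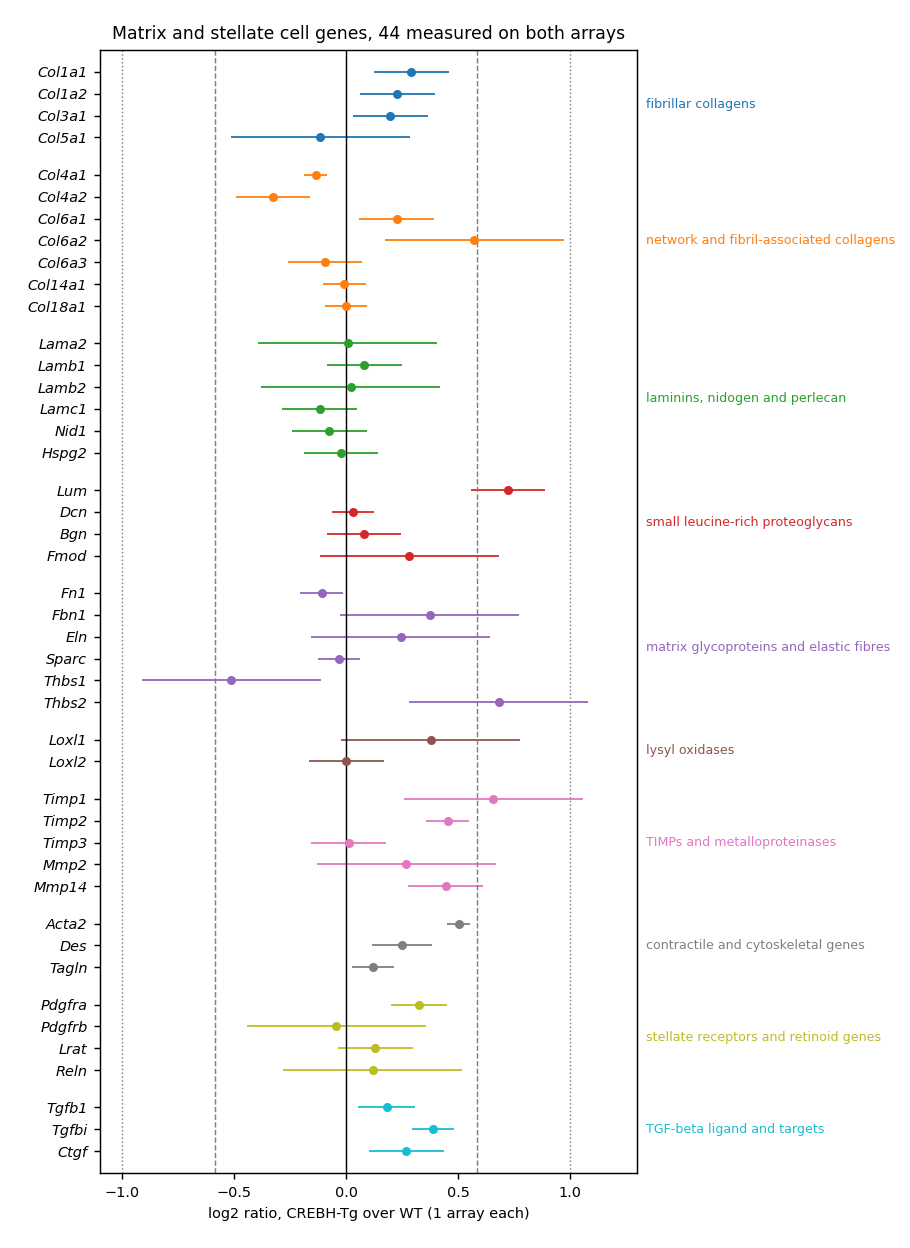
The log2 ratio of CREBH-Tg over WT is plotted for the 44 genes measured on both arrays, grouped by role, with bars for the 95% range of spot noise, dashed lines at 1.5-fold and dotted lines at 2-fold. Lum, Thbs2 and Timp1 lie to the right of the 1.5-fold line, no gene lies to the left of the line for 1.5-fold lower, and the bars do not cover variation between animals.

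Upstream sequences were available from RefSeq, build GRCm38.p6, for 31 of the 47 genes, as 34 start sites. The 250 bases before the start are shown for Thbs2, Timp1, Mmp14 and Tgfbi, as examples of the motifs named here among genes higher beyond spot noise. They were picked after the values were seen, and other higher genes hold such motifs too. So do genes that were not higher. The GC box was also found for Reln and Hspg2, within spot noise, for Col4a2, which was lower, and for undetected Tnc. Each window shown is written on the strand of its gene. Capitals mark, on either strand, the letters of the TATA box (TATAAA) in Thbs2, the GC box (GGGCGG) in Timp1, Mmp14 and Tgfbi, and the core of the cyclic AMP response element (TGACG) in Timp1. The Thbs2 match is on the strand opposite to the gene, where it reads TTTATA, 126 to 121 bases before the start. The windows are chr17:14694263-14694512 on the minus strand for Thbs2, chrX:20869916-20870165 on the plus strand for Timp1, chr14:54431348-54431597 on the plus strand for Mmp14 and chr13:56609336-56609585 on the plus strand for Tgfbi.
Thbs2: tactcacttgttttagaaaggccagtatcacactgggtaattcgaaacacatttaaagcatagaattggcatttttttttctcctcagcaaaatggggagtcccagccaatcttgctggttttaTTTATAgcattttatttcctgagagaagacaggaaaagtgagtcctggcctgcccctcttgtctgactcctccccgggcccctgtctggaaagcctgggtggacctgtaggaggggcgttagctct
Timp1: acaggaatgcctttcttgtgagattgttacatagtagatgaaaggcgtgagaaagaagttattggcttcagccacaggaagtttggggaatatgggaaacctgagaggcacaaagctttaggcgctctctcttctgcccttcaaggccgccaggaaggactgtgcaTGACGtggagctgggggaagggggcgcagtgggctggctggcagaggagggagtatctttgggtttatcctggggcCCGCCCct
Mmp14: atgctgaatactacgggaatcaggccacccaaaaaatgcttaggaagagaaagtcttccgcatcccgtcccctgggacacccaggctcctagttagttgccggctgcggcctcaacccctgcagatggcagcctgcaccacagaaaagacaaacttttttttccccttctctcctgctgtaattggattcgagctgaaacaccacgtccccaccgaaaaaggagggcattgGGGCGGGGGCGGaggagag
Tgfbi: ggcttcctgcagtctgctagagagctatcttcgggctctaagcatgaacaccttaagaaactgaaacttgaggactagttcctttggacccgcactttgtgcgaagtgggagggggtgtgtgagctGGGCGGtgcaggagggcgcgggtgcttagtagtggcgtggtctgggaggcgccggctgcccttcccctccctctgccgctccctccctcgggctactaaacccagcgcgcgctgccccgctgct

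The GC box, a sequence bound by Sp-family factors, was the motif found most often. It was in 22 of the 34 windows (64.7%), where 32.7% of 32851 windows in the RefSeq table held it. The TATA box was in 4 of 34 (11.8%), close to 12.4% of all windows. The AP-1 site (TGANTCA) was in 1 window, that of Col6a1 (2.94%), where 6.75% of all windows held it. The full cyclic AMP response element (TGACGTCA), the palindrome that factors of the CREB and ATF families bind, was in 0 of 34, and 1.55% of all windows held it. Its core TGACG, which is part of the full element, was in 2 of 34 (5.88%), the windows of Pdgfra and Timp1, where 17.8% of all windows held it. The SMAD element (GTCTAGAC) was in 0 of 34 and in 0.167% of all windows, and the CArG box, which serum response factor binds, was in 1, that of Lama2 (2.94%), and in 1.47% of all windows. Both strands were searched, and a match is a run of letters, not a measured binding site. The comparison took all windows, not matched to these genes by gene type or signal. A gene with several starts counts more than once.

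Of the fibrillar collagens, 3 of the 4 measured chains were higher beyond spot noise and 1 was within it. Counts beyond spot noise by role stand against 21.4% higher and 13.4% lower among all genes. Col1a1 and Col1a2 encode the chains of type I collagen, the main collagen of scar tissue. Col1a1 had a log2 signal of -0.23 in CREBH-Tg liver and -0.52 in WT liver, a ratio of 0.29. Col1a2 had an intensity of 1203 on the CREBH-Tg array and 1107 on the WT array before scaling, and a log2 ratio of 0.23 after it. The 2 chains of 1 protein thus differed by similar amounts, 1.22-fold and 1.17-fold. Col3a1, the chain of type III collagen, which forms fine reticular fibres, had 0.90 in CREBH-Tg liver and 0.70 in WT liver, a ratio of 0.20. Col5a1, a chain of type V collagen, which helps start fibril assembly, had -1.76 in CREBH-Tg liver and -1.64 in WT liver. Its ratio of -0.12 was within spot noise and turned to 0.081 under normexp. Col5a2, the other type V chain, lay below the detection limit with log2 signals of -4.91 in CREBH-Tg liver and -5.53 in WT liver.

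The network-forming and fibril-associated collagens did not lie on 1 side of 0. Type IV collagen, the scaffold of basement membranes, was lower, and 2 chains of type VI collagen, which forms beaded microfilaments around cells, were higher. Col4a1 was read by 10 spots, which averaged 0.031 ± 0.071 in CREBH-Tg liver and 0.17 ± 0.060 in WT liver (SD over spots of 1 array). The CREBH-Tg spot was the lower one at 9 of 10 positions, although the ranges overlapped, from -0.10 to 0.14 in CREBH-Tg liver and from 0.088 to 0.25 in WT liver. Col4a2 had 0.088 in CREBH-Tg liver and 0.42 in WT liver, a ratio of -0.33 or 1.26-fold lower. In the RefSeq table, Col4a1 and Col4a2 are neighbours on opposite strands, and their start windows of 300 bases share 78 bases.

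Col6a1 had 0.58 in CREBH-Tg liver and 0.36 in WT liver, a ratio of 0.23. Its neighbour Col6a2 had -1.48 in CREBH-Tg liver and -2.05 in WT liver, a ratio of 0.57 or 1.49-fold higher, which became 0.32 under normexp. The type VI chain Col6a3 did not share this direction, at -0.46 in CREBH-Tg liver and -0.37 in WT liver, a ratio of -0.095 within spot noise. Col14a1, a fibril-associated collagen, had a ratio of -0.0080, and Col18a1, the basement membrane collagen that yields endostatin, one of -0.0012. The second probes of these bright genes gave 0.024 for Col14a1 and -0.033 for Col18a1, so each pair of probes lay within 0.032 of each other.

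The 6 genes for laminins, nidogen and perlecan all lay within spot noise, with a median log2 ratio of -0.0084. Laminins are cross-shaped trimers of an alpha, a beta and a gamma chain, nidogen links them to type IV collagen, and perlecan is a large heparan sulphate proteoglycan. The ratios were 0.0067 for the alpha chain Lama2, 0.082 for the beta chain Lamb1, 0.020 for the beta chain Lamb2, -0.12 for the gamma chain Lamc1, -0.076 for nidogen (Nid1) and -0.024 for perlecan (Hspg2). Another probe of Lama2 gave 0.44, with signals of -2.42 in CREBH-Tg liver and -2.86 in WT liver. That ratio was beyond the limit of 0.40, which holds for 1 ratio against 0 and not for the difference between 2 probes. The sign of 5 of the 6 depended on the processing, that of Lamc1 being the exception.

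The small leucine-rich proteoglycans bind collagen fibrils and set their diameter and spacing. Lum (lumican) had an intensity of 1014 on the CREBH-Tg array and 663 on the WT array, or log2 signals of 1.72 in CREBH-Tg liver and 0.99 in WT liver. This difference of 0.72 was over 4 times the limit of spot noise for its class. It stayed between 0.66 and 0.81 under all 9 alternatives in processing. Dcn (decorin), its neighbour in the RefSeq table, had 6.09 in CREBH-Tg liver and 6.06 in WT liver, a ratio of 0.031 that turned negative under 3 alternatives. Bgn (biglycan) had a ratio of 0.080, with 1.22 in CREBH-Tg liver and 1.14 in WT liver. Fmod (fibromodulin) had a ratio of 0.28, with -2.25 in CREBH-Tg liver and -2.53 in WT liver. The ratios of Dcn, Bgn and Fmod were within spot noise, the last because Fmod is dim.

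Among the matrix glycoproteins and elastic fibre genes, the 2 thrombospondins differed in opposite directions. Thrombospondins are secreted proteins that tie matrix to cells, and thrombospondin-1 can release TGF-beta from its latent form. Thbs2 had an intensity of 40.9 on the CREBH-Tg array and 27.5 on the WT array, a log2 ratio of 0.68. Thbs1 had 29.1 on the CREBH-Tg array and 44.8 on the WT array, a log2 ratio of -0.51 or 1.43-fold lower. Both are among the dim genes, and after normexp the ratios were 0.26 for Thbs2 and -0.11 for Thbs1.

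Fibronectin (Fn1), which hepatocytes secrete into plasma as well as into matrix, had 7.61 in CREBH-Tg liver and 7.72 in WT liver. Its ratio of -0.11 was beyond the narrow spot noise of bright genes and was -0.021 under median scaling. Sparc, a collagen-binding matricellular protein, had a ratio of -0.032, and its second probe gave -0.055. Fibrillin (Fbn1), which forms the microfibrils on which elastin is laid down, had -2.51 in CREBH-Tg liver and -2.89 in WT liver, a ratio of 0.37. Elastin (Eln) had -2.73 in CREBH-Tg liver and -2.97 in WT liver, a ratio of 0.24. The ratios of Sparc, Fbn1 and Eln were all within spot noise. Tnc (tenascin C), a glycoprotein of wound tissue, lay below the detection limit on both arrays.

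Lysyl oxidases cross-link collagen and elastin. Loxl1 had -1.64 in CREBH-Tg liver and -2.02 in WT liver, a ratio of 0.38 within spot noise, and its other probe gave 0.67 with -2.76 in CREBH-Tg liver and -3.42 in WT liver. Both Loxl1 probes thus read higher in CREBH-Tg liver. The 3 probes of Loxl2 gave 0.00097, -0.12 and -0.24, so no direction holds over them. Both probes of Lox were below the detection limit on each array.

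All 3 of the TIMP and metalloproteinase genes that passed spot noise were higher in CREBH-Tg liver, and the median over the 5 genes was 0.44. Among all genes 21.4% were higher beyond spot noise, and in the brightest class, which holds Timp2, 36.7%. Timp1, the inhibitor most often tied to stellate cell activation, had an intensity of 68.0 on the CREBH-Tg array and 46.5 on the WT array, a log2 ratio of 0.66. After normexp its ratio was 0.40, which is under 1.5-fold. Timp2, which both inhibits metalloproteinases and takes part in activating the proenzyme of Mmp2, had 3.12 in CREBH-Tg liver and 2.66 in WT liver, a ratio of 0.45. A second Timp2 probe gave 0.25, also higher in CREBH-Tg liver. Mmp14, the membrane-bound enzyme that activates Mmp2, had -0.43 in CREBH-Tg liver and -0.87 in WT liver, a ratio of 0.44. Mmp2, a gelatinase of stellate cells, had -2.12 in CREBH-Tg liver and -2.39 in WT liver, a ratio of 0.27 within spot noise. Timp3, a matrix-bound inhibitor, had a ratio of 0.011, whose sign depended on the scaling.

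The contractile and cytoskeletal genes mark activated stellate cells, myofibroblasts and vascular smooth muscle alike, and all 3 were higher beyond spot noise, Tagln narrowly. Among all genes 21.4% were, and in the brightest class, which holds Tagln, 36.7%. Acta2, alpha smooth muscle actin, averaged 0.16 ± 0.079 over 10 spots in CREBH-Tg liver and -0.34 ± 0.070 in WT liver (SD over spots of 1 array). The CREBH-Tg spots ran from 0.021 to 0.29 and the WT spots from -0.44 to -0.22, so the ranges did not overlap and the CREBH-Tg spot was the higher one at 10 of 10 positions. Of the 5 genes with repeated spots, Acta2 was the one whose ranges lay apart, at a ratio of 0.50. Desmin (Des), the intermediate filament of stellate and muscle cells, averaged -3.01 ± 0.14 in CREBH-Tg liver and -3.27 ± 0.25 in WT liver over 9 spots, with 1 spot left out as an outlier. Its spots were higher at 7 positions and lower at 2, and its own SD of the ratio, 0.36, was wider than that of its class. The Des ratio of 0.25 became 0.11 under normexp, within the limit of spot noise that was taken before that correction. Tagln (transgelin), an actin-binding protein of smooth muscle, had 3.31 in CREBH-Tg liver and 3.19 in WT liver, a ratio of 0.12 that came within spot noise under 4 alternatives, at 0.059 to 0.092.

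**Figure D2:**
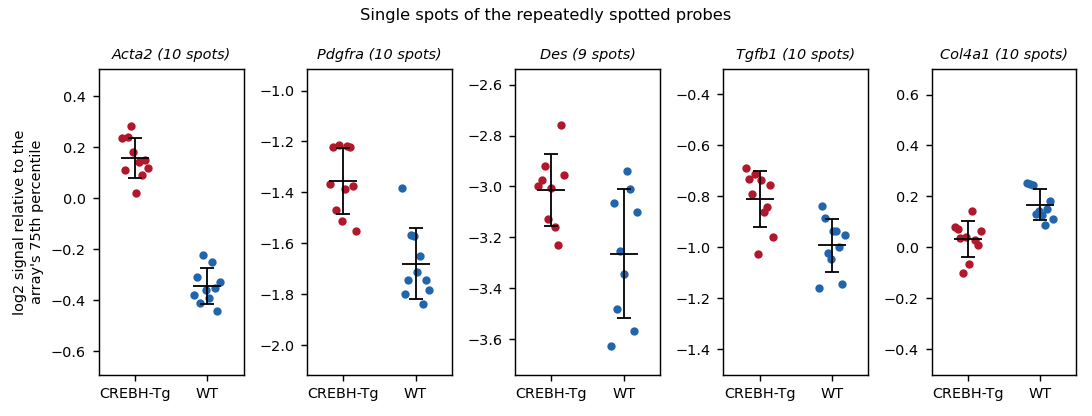
Each panel shows the single spots of 1 of the 5 repeatedly spotted probes on the CREBH-Tg array, at left, and the WT array, at right, as log2 signal relative to the 75th percentile of the array. Bars are the mean and SD over spots of 1 array, the vertical scale has the same span in every panel but not the same start, and the spots of Acta2 are the ones whose ranges do not overlap.

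Of the stellate receptors and retinoid genes, Pdgfra was higher beyond spot noise. It encodes a receptor for platelet-derived growth factors found on quiescent stellate cells and portal fibroblasts, and averaged -1.35 ± 0.13 in CREBH-Tg liver and -1.68 ± 0.14 in WT liver over 10 spots. The CREBH-Tg spot was the higher one at 10 of 10 positions, although the ranges overlapped, from -1.55 to -1.22 in CREBH-Tg liver and from -1.84 to -1.38 in WT liver. Pdgfrb, the receptor through which activated stellate cells proliferate, had -0.94 in CREBH-Tg liver and -0.89 in WT liver, a ratio of -0.043. Lrat, the enzyme that makes retinyl esters for storage, had 0.00090 in CREBH-Tg liver and -0.13 in WT liver, a ratio of 0.13. Reln (reelin), a secreted glycoprotein made by stellate cells, had a ratio of 0.12, which became -0.038 under normexp. The ratios of Pdgfrb, Lrat and Reln were within spot noise.

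The 3 TGF-beta genes were all higher beyond spot noise, by 1.13-fold to 1.31-fold. Among all genes 21.4% were higher beyond it, and in the brightest class, which holds Tgfbi, 36.7%. Tgfb1, the ligand, averaged -0.81 ± 0.11 in CREBH-Tg liver and -0.99 ± 0.10 in WT liver over 10 spots. It was higher in CREBH-Tg liver at 9 of 10 positions, with overlapping ranges and a mean ratio of 0.18. Tgfbi, a secreted adhesion protein induced by TGF-beta, had an intensity of 6009 on the CREBH-Tg array and 4952 on the WT array, a ratio of 0.39. Tgfbi is in the brightest class, where the limit of spot noise is 0.095. Ctgf, named Ccn2 in the RefSeq table, is a matricellular growth factor and TGF-beta target, and had 0.95 in CREBH-Tg liver and 0.68 in WT liver, a ratio of 0.27.

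**Figure D3:**
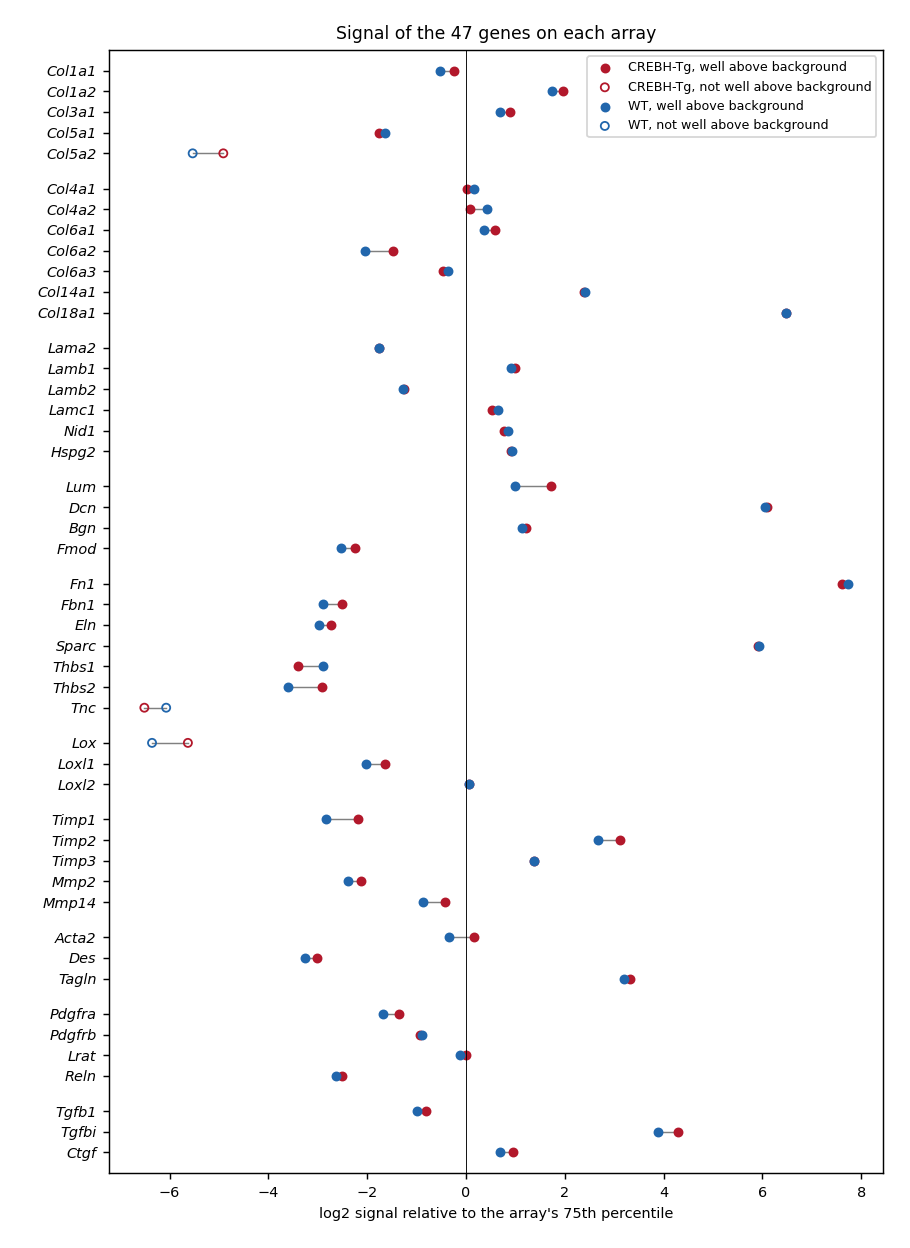
Log2 signals of all 47 genes are shown relative to the 75th percentile of each array, with CREBH-Tg in red and WT in blue, and open circles for probes not well above background. Col5a2, Tnc and Lox are the genes with open circles, and the distance between the points of a gene is its log2 ratio, since levels of different probes cannot be compared with each other.

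Genes that make and read the matrix were described from further lists. Counts beyond spot noise in these lists stand against 21.4% higher and 13.4% lower among all genes. Of 13 collagen processing enzymes, the hydroxylases, chaperones and proteinases that mature procollagen, 12 were measured. Of these 6 were higher beyond spot noise and 0 lower, with a median of 0.14, and the procollagen proteinase Adamts2 lay farthest from 0 at 0.30, with 1.37 in CREBH-Tg liver and 1.07 in WT liver. Of 18 genes of TGF-beta and PDGF signalling, 16 were measured, 2 were higher and 3 lower beyond spot noise, and the median was 0.012. Smad7, an inhibitory Smad that TGF-beta induces, lay farthest from 0 at 0.35, with -0.011 in CREBH-Tg liver and -0.36 in WT liver. The ligand Tgfb3 lay about as far on the other side at -0.35, with -0.99 in CREBH-Tg liver and -0.64 in WT liver. The shift of Tgfb1, Tgfbi and Ctgf was thus not shared by the median of the signalling list.

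Of 13 other matrix proteases and inhibitors, 5 were measured on both arrays. The stromelysin-like protease Mmp11 was 1.91-fold lower, with -2.76 in CREBH-Tg liver and -1.83 in WT liver, but under normexp 0 of the 5 genes were 1.5-fold lower. Mmp3, Mmp8, Mmp9, Mmp12, Mmp13, Timp4, Plau and Plat were well above background on neither array, so the interstitial collagenases Mmp8 and Mmp13 could not be compared. Of 15 matrix receptors, 12 were measured, with a median of 0.080. Beyond spot noise 4 were higher and 0 lower, against 21.4% and 13.4% of all genes. The integrin chain Itgav, part of receptors that activate latent TGF-beta, lay farthest from 0 at -0.36, with -2.26 in CREBH-Tg liver and -1.90 in WT liver.

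The list of 23 other collagens and matrix proteins held 16 measured genes. Beyond spot noise 4 of them were higher and 6 lower, against 21.4% and 13.4% of all genes. The median of the list was -0.083 in the values used here, 0.0060 under median scaling and 0.0074 under loess. The laminin beta chain Lamb3 was 7.95-fold higher, with 2.85 in CREBH-Tg liver and -0.14 in WT liver. The glycoprotein Fbln1 was detected in CREBH-Tg liver alone, and was at least 2.04-fold higher. That bound sets its CREBH-Tg signal against the detection limit of the WT array. Periostin (Postn), a matricellular protein of fibrotic tissue chosen after its value was seen, was lower, with -1.34 in CREBH-Tg liver and -0.81 in WT liver, a ratio of -0.53.

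The levels of cell type markers were read beside these values, since matrix genes are made by several liver cell types. Hepatocyte markers were measured for 8 of 8 genes with a median of 0.062. Tf, the plasma iron carrier, lay farthest from 0 at 0.11, with 10.3 in CREBH-Tg liver and 10.2 in WT liver. The summed scaled signal of the list was 7163 in CREBH-Tg liver and 6822 in WT liver, in multiples of the 75th percentile of each array. Such a sum is led by the brightest genes of its list. Of 14 other stellate cell markers, 13 were measured with a median of 0.12. Beyond spot noise 6 were higher and 1 lower, against 21.4% and 13.4% of all genes. Their summed signal was 126 in CREBH-Tg liver and 122 in WT liver. Hand2, a transcription factor of the stellate lineage, lay farthest from 0 at 0.55, with -0.66 in CREBH-Tg liver and -1.21 in WT liver. Gfap, a filament protein often used as a marker of quiescent stellate cells, was well above background on neither array.

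Portal fibroblast and mesothelial markers had 8 of 11 genes measured, with a median of 0.28. Thy1, a surface protein of portal fibroblasts, was 1.66-fold higher, with -0.042 in CREBH-Tg liver and -0.78 in WT liver. Gpm6a was 1.64-fold higher, with -3.29 in CREBH-Tg liver and -4.00 in WT liver. Clec3b was 1.59-fold higher, with -2.40 in CREBH-Tg liver and -3.06 in WT liver. Under normexp none of these 8 genes reached 1.5-fold, and the median was 0.15. The defining markers Gli1 and Upk1b were well above background on neither array, and the summed signal was 4.54 in CREBH-Tg liver and 3.84 in WT liver.

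Smooth muscle markers had 4 of 7 genes measured, 2 higher and 2 lower beyond spot noise, where 21.4% and 13.4% of all genes were. Cnn1 (calponin), a binder of actin, was 1.71-fold higher, with -2.23 in CREBH-Tg liver and -3.01 in WT liver. Actg2, the enteric smooth muscle actin, was 1.63-fold higher, with -2.71 in CREBH-Tg liver and -3.42 in WT liver. The summed signal of the 4 genes went the other way, at 3.86 in CREBH-Tg liver and 4.38 in WT liver, and under normexp 0 of the 4 reached 1.5-fold. Myh11, the defining myosin of smooth muscle, was well above background in CREBH-Tg liver alone. Its signals were -4.04 in CREBH-Tg liver and -4.08 in WT liver. They were 1.03-fold apart, where the limit of spot noise for 1 spot of a dim gene is 1.32-fold. Lmod1 was detected on neither array. The part of fibroblast and smooth muscle markers in the ratios of Acta2, Tagln, Lum and Pdgfra was not tested.

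Sinusoidal endothelial markers, measured for 12 of 12 genes, had a median of 0.099, with 6 higher and 1 lower beyond spot noise. Among all genes 21.4% were higher and 13.4% lower. In the brightest class, to which many of these markers belong, the shares were 36.7% and 15.5%. Lyve1, a hyaluronan receptor of these cells, lay farthest from 0 at -0.34, with -0.29 in CREBH-Tg liver and 0.048 in WT liver, and the summed signal was 175 in CREBH-Tg liver and 155 in WT liver. Macrophage markers, 9 of 10 measured, had a median of -0.070 (0.019 under median scaling) and summed to 164 in CREBH-Tg liver and 181 in WT liver. The scavenger receptor Marco was 1.94-fold lower, with 2.97 in CREBH-Tg liver and 3.93 in WT liver. Lymphocyte markers, 9 of 10 measured, had a median of 0.27 and summed to 129 in CREBH-Tg liver and 103 in WT liver. Most of that sum came from 1 bright gene, Cd4. Its intensity was 35220 of the list's 39815 on the CREBH-Tg array and 29933 of 34443 on the WT array. Cd3d, a chain of the T cell receptor complex, was 2.14-fold higher, with -1.59 in CREBH-Tg liver and -2.69 in WT liver, and Cd8a was well above background on neither array. Cd3d is a dim gene. The related chains gave log2 ratios of 0.53 for the dim gene Cd3g and 0.093, within spot noise, for the bright gene Cd3e.

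Cholangiocyte markers, 6 of 7 measured, had a median of -0.14 (-0.048 under median scaling and -0.032 under normexp) and summed to 1.94 in CREBH-Tg liver and 2.41 in WT liver. The bile duct keratin Krt7 lay farthest from 0 at -0.54, with -3.75 in CREBH-Tg liver and -3.21 in WT liver, and Epcam was well above background on neither array. Adipocyte markers, 3 of 5 measured, had a median of 1.55 (0.79 under normexp) and summed to 3.71 in CREBH-Tg liver and 2.50 in WT liver. Adipoq, the fat cell hormone adiponectin, was 4.61-fold higher, with -1.40 in CREBH-Tg liver and -3.60 in WT liver, and Retn was 2.94-fold higher, with -1.60 in CREBH-Tg liver and -3.15 in WT liver. Plin1, a coat protein of fat droplets, was detected in CREBH-Tg liver alone and was at least 1.5-fold higher. Of the 9 marker lists, only those of macrophages and cholangiocytes had medians below 0 in the values used here, and the part of these cells in the matrix ratios was not tested.

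**Figure D4:**
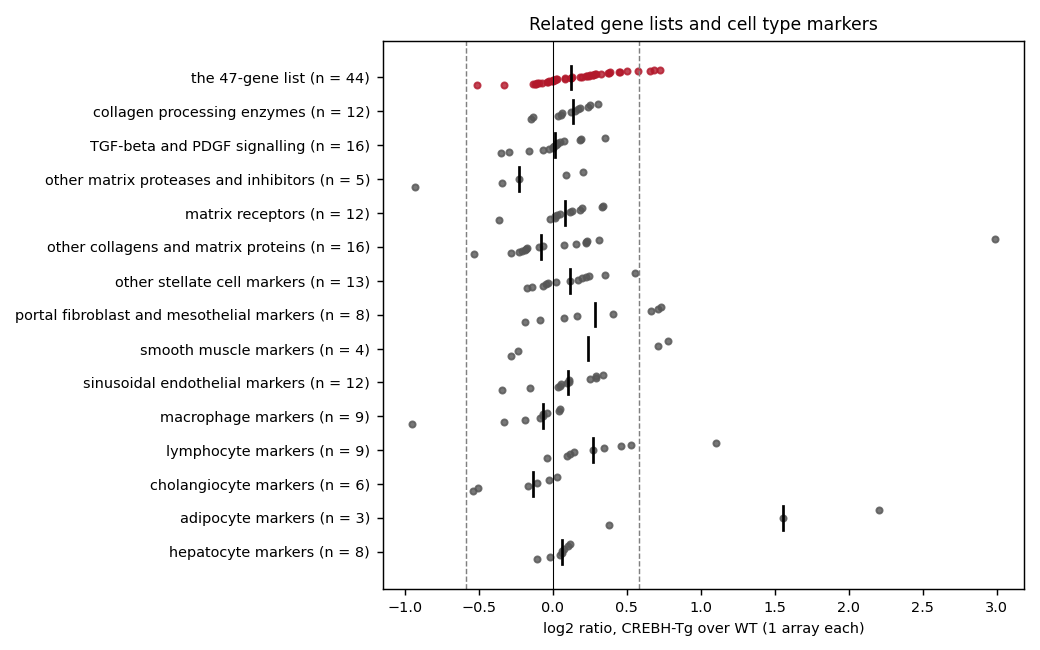
Log2 ratios of CREBH-Tg over WT are plotted for the 44 measured matrix and stellate genes in red and for the measured genes of 14 further lists in grey, with a black bar at each median and dashed lines at 1.5-fold. The median of the 47-gene list is 0.12, that of portal fibroblast and mesothelial markers 0.28 and that of macrophage markers -0.070, and the points farthest right are Lamb3 and Adipoq.

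The processing moved the size of many ratios and the side of some. Of the 9 alternatives, the stricter filter gave no value for 20 of the 44 genes, 8 of the 17 higher beyond spot noise and 1 of the 4 lower among them, so those genes have 8 alternatives. In the settings that gave a value, the 17 genes stayed above 0 and the 4 lower ones (Col4a1, Col4a2, Fn1 and Thbs1) below 0. The limits of spot noise were taken from the values used here and not anew for each alternative. Set against these limits, however, 8 of the 17 and 3 of the 4 came within spot noise under at least 1 alternative. The 9 higher genes that stayed beyond it wherever they had a value were Col1a1, Col1a2, Lum, Timp2, Mmp14, Acta2, Pdgfra, Tgfbi and Ctgf, and the lower one was Col4a2. Over the settings that gave a value, 24 of the 44 genes were always above 0, 6 were always below and 14 changed side, Col5a1, Dcn, Sparc and Timp3 among them. Lum alone was at least 1.5-fold higher in all of these settings.

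**Figure D5:**
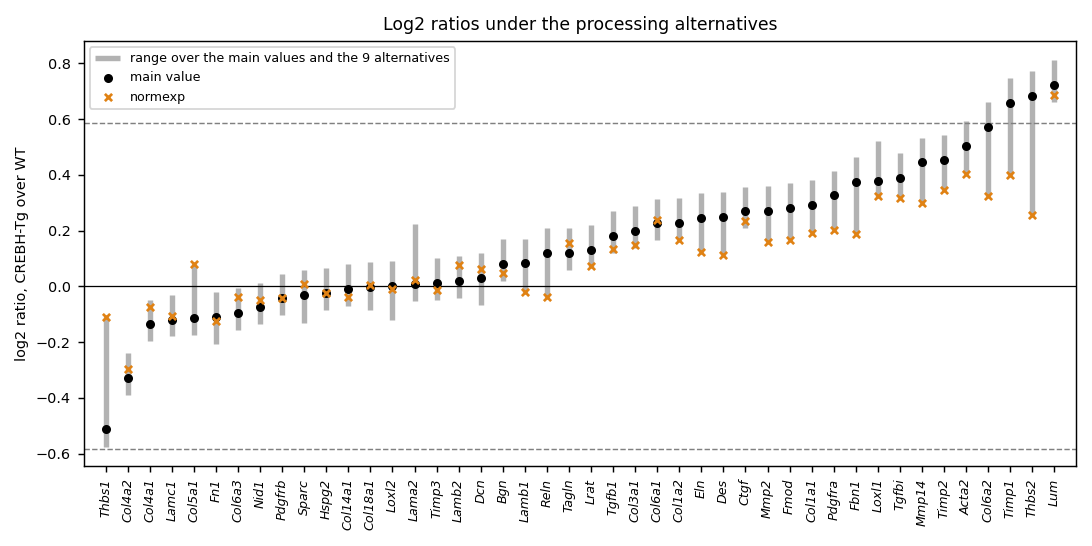
For each of the 44 genes the black point is the log2 ratio as reported, the grey bar its range over that value and the alternatives that gave one (9, or 8 for the 20 genes that the stricter filter drops), and the cross its value after normexp. Thbs2 ran from 0.26 to 0.77, Timp1 from 0.40 to 0.75 and Lum from 0.66 to 0.81, and the dashed lines mark 1.5-fold.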

How the data were processed

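Pooled liver RNA was read on 2 one-colour Agilent arrays, 1 per genotype. RNA was isolated with Trizol and labelled with Cy3, per the labels' protocols. Feature Extraction 10.10.1.1 read the arrays and probes were annotated on mm9, per the file headers. The authors deposited a processed signal, an intensity with background subtracted, and the file headers name no scaling between arrays. The authors' value table equals that intensity times 2.68 for CREBH-Tg and 2.59 for WT, by a rule not given in the sources used here.

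Here log2 of the deposited signal was taken and the 75th percentile of the array subtracted. Control spots and 300 outlier-marked spots were dropped, and repeated spots averaged. Each gene was read from its brightest probe among those well above background on both arrays. Of 55677 probes, 27233 were named by transcript accession through a RefSeq table of GRCm38.p6. Members and lists were chosen with earlier results of these data known.

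All 47 members are named. From the further lists, the members 1.5-fold or more apart are named (at most 4 a list, by size), or else the member farthest from 0, together with genes detected on 1 array whose bound is at least 1.5-fold. Markers below the detection limit are named as such, and Myh11 is given with its signals. Postn, Tgfb3, Cd4, Cd3e, Cd3g and the laminin chains were chosen after their values were seen. The value of 1 gene in these lists is not reported here. The steps were tested on simulated data, no test across genes was run, and the number of arrays limits the precision. Alternatives were other scalings, the value table, normexp with an offset of 50, the mean over probes, other filters on dim probes and other thresholds. Python 3.11.15, numpy 2.4.6, pandas 2.3.3, R 4.3.3 and limma 3.58.1 were used.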

Additional observations from a re-analysis of the deposited data

How the results depend on the processing

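The values reported gave 3 members at least 1.5-fold higher and 0 lower, and no called gene turned round under any alternative. The count of genes at least 1.5-fold higher became 5 under median scaling and 5 of 47 without a filter on dim probes, where Col5a2 and Lox were below the detection limit. It was 1 under normexp and 1 of 24 genes under the stricter filter, 0 at a 3-fold threshold, 11 at a log2 ratio of 0.32 and 17 with spot noise in place of a fold. The count at least 1.5-fold lower became 2 at a log2 ratio of 0.32 below 0 and 4 with spot noise. The median log2 ratio of 0.12 became 0.21 under median scaling, which shifted the median of all genes by 0.089. The number of genes above 0, 31 of 44, became 15 of 24 under the stricter filter, which tests fewer genes, and 26 to 37 of 44 under the other scalings. The counts at 2-fold were 0 in both directions under every alternative. Of 376 single-gene values compared, 319 lay within 1 SD of spot noise of the reported value and 57 farther, and of 42 list medians 22 lay farther. The cause of these shifts was not tested beyond the changes in filter and threshold. No paired analysis was possible because each genotype has 1 array and the labels give no replicate numbers. Dim genes are the least certain, with a spot noise limit of 0.40, and no value carries the spread between animals or pools.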

Other observations

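A set of 10 laminin chains, all measured on both arrays, was described after the values were seen. The beta chain Lamb3, which occurs in laminins of epithelial basement membranes, had a log2 signal of 2.85 in CREBH-Tg liver and -0.14 in WT liver, a ratio of 2.99. The other chains of the set that lie outside the 47 genes did not share that direction. The probes of the alpha chain Lama3 gave -0.16, with -0.88 in CREBH-Tg liver and -0.72 in WT liver, and -1.12, with -1.97 in CREBH-Tg liver and -0.86 in WT liver. Lama1, Lama4, Lama5 and Lamc3 had ratios of -0.14, -0.19, -0.28 and -0.023. Lamb3 was read by 1 spot of 1 probe, so no other probe on these arrays bears on its value.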
